A study of Arabidopsis thaliana with 45 samples.

Results

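The windows described here are the CG windows in which rosettes of S2 and S1 *Arabidopsis thaliana* plants, both exposed to 30 mGy/h of gamma radiation (γ30), had different DNA methylation levels. All rows of the S1γ30 vs. S2γ30 comparison in the CG context were taken, and each window of 200 bp was counted once, which gave 1844 windows from 1890 entries, or 0.325% of the genome's windows with a CG. They belong to the 2331 different CG windows listed over the 18 comparisons of the series. S2γ30 plants were grown from seeds of irradiated S1 plants, and S1γ30 plants from seeds of irradiated P0 plants. Both groups were of the Columbia accession and received the dose rate for 14 days from a caesium source, and the generations before them in the line had undergone the same treatment. S2γ30 thus had 1 irradiated generation more than S1γ30 in its line. Each group had 5 samples, of 45 samples over 9 conditions of generation and dose rate. The age at the start of exposure is 7 days in the design text and 14 days in the treatment protocol. Generation is the only labelled difference between both groups, so it cannot be told apart from anything else that differed between these sowings.

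In plants, the CG mark is copied at each DNA replication: VIM proteins bind the new DNA that is methylated on only one strand, and the methyltransferase MET1 restores the mark on the other. ROS1 and its relatives cut methylated cytosines out of the DNA, and small RNAs bound by AGO4 guide new methylation, mainly in transposable elements (TEs). In Arabidopsis, CG methylation is dense in TEs around the centromeres and is also present, without the other contexts, in the bodies of many long, steadily expressed genes. This gene body methylation is low at the start of the gene, and single CG sites in it are known to gain and lose the mark over generations. A methylation level is the fraction of read cytosines that were methylated, between 0 and 1.

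The table gives 1 level per group, pooled by the authors over the samples, so how much the 5 samples differed among themselves is unknown, and no test was made. Every listed window had passed the authors' thresholds (a p of 0.05 and a difference of 20%), so that a difference exists in each of them is how they were chosen and not a result. The 95% exact (Clopper-Pearson) confidence intervals below belong to shares of windows, treat windows as independent and cover counting error only. The coverage of single windows is unknown.

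Some of the windows on which the description rests are printed here as reference sequence (TAIR10 coordinates, plus strand, RefSeq TAIR10.1). All CG sites of the reference are in capitals, and which of them were covered and entered a level is unknown. The largest gain and the largest loss of the table both hold a single CG site. The window between genes near LCR12 has 12 sites, the MMT window 5, and the LIG6 window 1. The AGO4 windows lie in a single gene and moved in opposite directions.
GRV2, chr2:11462801-11463000: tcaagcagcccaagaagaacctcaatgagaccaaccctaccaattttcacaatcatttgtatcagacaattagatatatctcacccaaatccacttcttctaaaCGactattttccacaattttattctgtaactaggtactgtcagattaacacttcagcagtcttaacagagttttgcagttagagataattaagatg
AT2G47210, chr2:19381001-19381200: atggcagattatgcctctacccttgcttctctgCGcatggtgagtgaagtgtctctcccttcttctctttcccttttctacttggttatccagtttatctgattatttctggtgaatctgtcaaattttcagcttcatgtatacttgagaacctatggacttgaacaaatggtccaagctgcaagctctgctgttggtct
near LCR12, chr5:19830001-19830200: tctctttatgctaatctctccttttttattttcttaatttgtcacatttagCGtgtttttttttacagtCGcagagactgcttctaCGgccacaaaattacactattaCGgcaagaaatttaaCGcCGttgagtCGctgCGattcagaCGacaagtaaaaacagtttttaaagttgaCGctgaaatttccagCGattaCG
MMT, chr5:20241801-20242000: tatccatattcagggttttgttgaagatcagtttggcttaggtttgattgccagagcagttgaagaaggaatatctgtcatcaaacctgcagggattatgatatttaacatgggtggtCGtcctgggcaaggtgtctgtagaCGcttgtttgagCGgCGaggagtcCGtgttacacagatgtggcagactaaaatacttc
LIG6, chr1:24886601-24886800: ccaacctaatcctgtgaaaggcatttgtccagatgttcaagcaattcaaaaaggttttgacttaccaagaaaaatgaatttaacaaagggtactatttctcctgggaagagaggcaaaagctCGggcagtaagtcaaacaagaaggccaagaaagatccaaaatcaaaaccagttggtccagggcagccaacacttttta
AGO4, chr2:11538201-11538400: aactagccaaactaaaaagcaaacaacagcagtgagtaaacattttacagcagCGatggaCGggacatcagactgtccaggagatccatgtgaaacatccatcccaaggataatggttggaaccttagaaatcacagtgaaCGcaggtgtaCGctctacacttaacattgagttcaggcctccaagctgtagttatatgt
AGO4, chr2:11538801-11539000: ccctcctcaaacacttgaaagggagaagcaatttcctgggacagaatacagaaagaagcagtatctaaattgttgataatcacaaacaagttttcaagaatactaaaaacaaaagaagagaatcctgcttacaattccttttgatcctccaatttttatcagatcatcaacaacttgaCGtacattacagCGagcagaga
AGO4, chr2:11540001-11540200: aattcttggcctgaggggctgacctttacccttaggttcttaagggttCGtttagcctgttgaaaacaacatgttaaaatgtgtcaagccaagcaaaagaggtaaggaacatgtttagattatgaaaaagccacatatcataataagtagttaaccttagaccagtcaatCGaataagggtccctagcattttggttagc
The AGO4 windows hold 4, 2 and 2 CG sites in the order printed.

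Of the 1844 windows, 1033 (56%, 95% interval 53.7 to 58.3%) were hypermethylated in S2γ30, and 811 (44%) were hypomethylated. In the hypermethylated windows the median level was 0.55 in S2γ30 (quartiles 0.334 and 0.743) and 0.0989 in S1γ30 (quartiles 0.0101 and 0.377). In the hypomethylated windows it was 0.183 in S2γ30 (quartiles 0.0189 and 0.428) and 0.573 in S1γ30 (quartiles 0.381 and 0.785). The median difference, S2γ30 minus S1γ30, was 0.3 in hypermethylated and -0.294 in hypomethylated windows, and the extremes were 0.916 and -0.935. Both directions thus had much the same size, and the hypermethylated windows were more numerous.

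The joint distribution of both levels had 2 dense bands along its axes. In 518 windows (28.1%, 26 to 30.2%) the level was under 0.1 in S1γ30 only, and their median in S2γ30 was 0.335. In 354 windows (19.2%, 17.4 to 21.1%) it was under 0.1 in S2γ30 only, with a median of 0.361 in S1γ30. The remaining 972 windows (52.7%) were at 0.1 or above in both groups, with a median of 0.581 in S2γ30 and 0.537 in S1γ30, and 515 of them were higher in S2γ30. No window was under 0.1 in both groups, since the threshold of 0.2 leaves no room for one. Complete switches were few. The level was at least 0.9 in S2γ30 and under 0.1 in S1γ30 in 7 windows, and the reverse held in 9. A level of exactly 0 was listed for 23 windows in S2γ30 and for 47 in S1γ30.

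**Figure D1:**
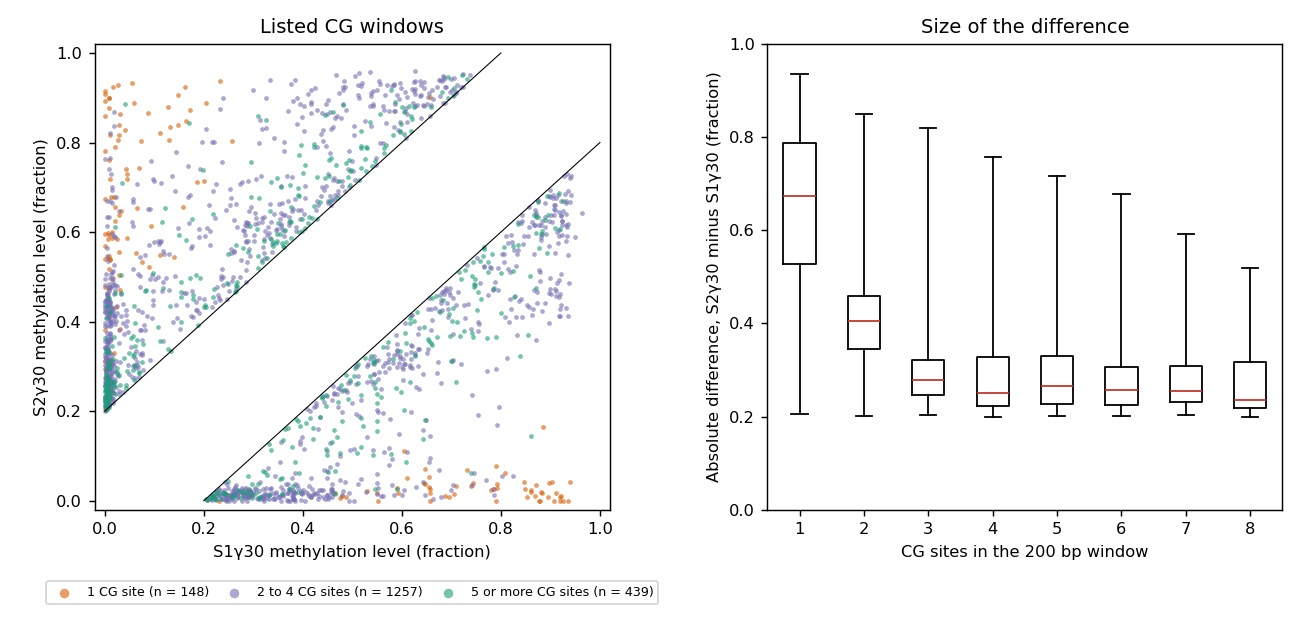
Left, methylation level (fraction) in S2γ30 against S1γ30 for each of the 1844 listed CG windows, coloured by the number of CG sites, with lines at the difference of 0.2 that a window needed to be listed. Right, absolute difference by number of CG sites (1 to 8) as median, quartiles and full range. Points crowd along both axes under 0.1, and the median difference was 0.673 with 1 CG site, 0.406 with 2 and 0.279 with 3.

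Among the listed windows, the size of a difference went with the number of CG sites in the window. The listed windows held 1 to 13 CG sites, with a median of 3, against 4 in the genome's windows with a CG. Windows with 2 to 4 sites made up 68.2% (66 to 70.3%) of the listed windows and 45.1% of the genome's, and windows with 5 or more sites 23.8% against 44.6%. The absolute difference had a median of 0.673 in the 148 windows with 1 site, 0.406 in the 387 with 2, 0.279 in the 501 with 3 and 0.251 in the 369 with 4. Multiplied by the number of sites, these medians came to 0.673, 0.812, 0.836 and 1.01, and with 5 sites to 1.33. If every site entered the level equally, 1 would be the change of a single site between unmethylated and fully methylated. The threshold of 0.2 sets a lower end to this product that grows with the number of sites. Listed windows also had to pass the p threshold, and whether windows with few sites needed a larger difference to pass was not tested. Windows with 2 sites were also sorted by bands of level that were set here. Of these 387, 185 (47.8%, 42.7 to 52.9%) had one group under 0.1 and the other between 0.3 and 0.6, 92 (23.8%) had one group between 0.3 and 0.6 and the other at 0.8 or above, and 4 went the whole way between under 0.1 and at least 0.8. Of the 148 windows with 1 site, 42 (28.4%) did. The other windows with 2 sites had none of these patterns, and windows with 3 or more sites were not sorted in this way. The levels of single sites were not analysed here.

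The largest differences on every chromosome were at windows with 1 CG site inside protein-coding genes, and all of these windows changed almost completely. On chromosome 1 the helicase gene emb2411 (AT1G08840), whose product acts in DNA replication, had a level of 0.892 in S2γ30 and 0 in S1γ30 (chr1:2830001-2830200, coding exon and intron). TIL1 (AT1G08260), which encodes the catalytic subunit of DNA polymerase epsilon, had 0 in S2γ30 and 0.907 in S1γ30 (chr1:2592801-2593000). Of the bisulfite-converted 75-base stretches of that window, 91.3% are found once in the genome, against 100% in the other windows of this paragraph. On chromosome 2, GRV2 (AT2G26890), a DnaJ domain protein needed for vacuolar trafficking, had 0.916 in S2γ30 and 0 in S1γ30. AT2G47210, annotated as a myb-like transcription factor, had 0 in S2γ30 and 0.935 in S1γ30, at the CG site printed above. Both were coding exon and intron sequence.

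On chromosome 3, ATVPS33 (AT3G54860), of the Sec1/Munc18 family of vesicle fusion proteins, had 0.9 in S2γ30 and 0.00826 in S1γ30 in an intron (chr3:20325401-20325600). RIK (AT3G29390), a KH domain RNA-binding protein, had 0 in S2γ30 and 0.926 in S1γ30 (chr3:11292201-11292400). On chromosome 4 the gene NOV (AT4G13750) had 0.928 in S2γ30 and 0.0275 in S1γ30 (chr4:7981601-7981800), and AT4G19010, an AMP-dependent synthetase and ligase, had 0.00763 in S2γ30 and 0.92 in S1γ30 (chr4:10413201-10413400, coding exon). On chromosome 5, UBA 2 (AT5G06460), a ubiquitin-activating enzyme, had 0.907 in S2γ30 and 0 in S1γ30 (chr5:1972001-1972200). AT5G15680, an ARM repeat protein, had 0.0168 in S2γ30 and 0.912 in S1γ30 in an intron (chr5:5110001-5110200). In other comparisons, emb2411, ATVPS33 and TIL1 had 0.92, 0.833 and 0.0148 in S1γ0, near S2γ30. GRV2, UBA 2, AT2G47210 and AT4G19010 had 0.122, 0.0992, 0.792 and 0.818 in S2γ0, nearer to S1γ30. A window is listed there only if it differs, so which group stands apart partly follows from the listing.

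Among windows with 5 or more CG sites, the largest gain was between genes on chromosome 5, with 0.886 in S2γ30 and 0.0403 in S1γ30 over 12 sites. It lies 861 bp after the end of AT5G48900 and 1055 bp before LCR12 (AT5G48905), which encodes a small defensin-like protein. The adjoining window (chr5:19830201-19830400, 7 sites) had 0.612 in S2γ30 and 0.0206 in S1γ30, so that both windows were higher in S2γ30. The largest loss was in a coding exon and intron of MMT (AT5G49810), a methionine S-methyltransferase, with 0.145 in S2γ30 and 0.862 in S1γ30. Among windows in which no group was under 0.1 or at 0.9 and above, a window between genes on chromosome 5 (chr5:13357401-13357600) had 0.879 in S2γ30 and 0.129 in S1γ30, and EMB2729 (AT3G20440), of the alpha amylase family, 0.165 in S2γ30 and 0.886 in S1γ30 (chr3:7128001-7128200).

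The windows nearest to the threshold show the other end. AT2G43160, an ENTH/VHS family protein, had 0.207 in S2γ30 and 0.00699 in S1γ30 (chr2:17951601-17951800). AT1G65920 had 0.566 in S2γ30 and 0.766 in S1γ30 (chr1:24527201-24527400), and the F-box gene AT3G56780 had 0.205 in S2γ30 and 0.00513 in S1γ30 (chr3:21032401-21032600). Their differences were 0.2001, -0.2001 and 0.2002, and windows below 0.2 are not in the table.

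Most windows were in gene bodies. By coordinates, 1546 windows (83.8%, 82.1 to 85.5%) overlapped protein-coding genes, while of the genome's windows with a CG 58.6% did. The share was 82.7% (80.2 to 84.9%) in hypermethylated and 85.3% (82.7 to 87.7%) in hypomethylated windows. Of the 1546, 1388 touched a coding exon, 1068 an intron and 204 an untranslated region, and 105 lay in introns only. Within the genes the windows stood away from the start. Along the strand of the gene, the first quintile of the gene held 4.31% of the hypermethylated and 4.14% of the hypomethylated windows, against 20.2% of all genic windows with a CG, and the fourth quintile 33% and 29.3% against 20.3%. Only 34 of 1512 (2.25%, 1.56 to 3.13%) were within 500 bp of the gene start, against 20.7% in the genome, and 191 (12.6%, 11 to 14.4%) within 500 bp of the gene end, against 19.5%. Both directions had this profile.

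**Figure D2:**
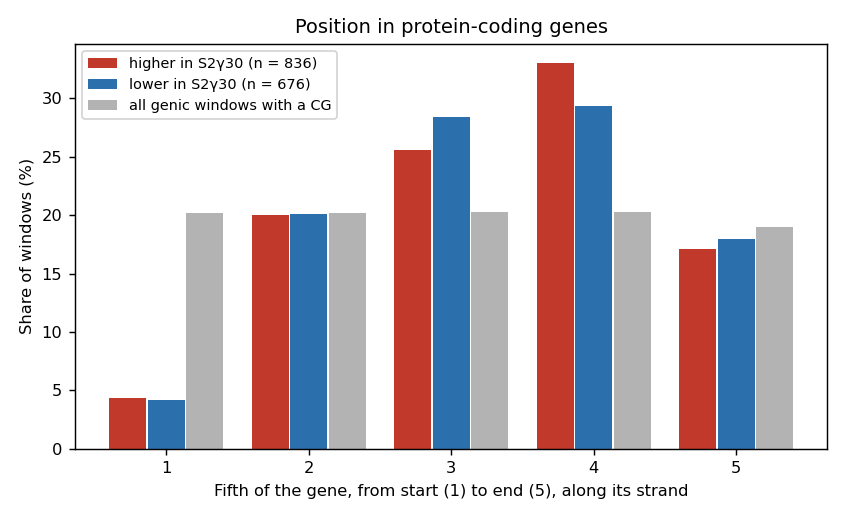
Share of genic windows (%) in each quintile of the gene length, from its start (1) to its end (5) along its strand, for windows higher in S2γ30, windows lower in S2γ30 and all genic windows of the genome with a CG. The first quintile held 4.31% and 4.14% of the listed windows, against 20.2% of the genome's.

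The gene named in the table was not always the gene that held the window, since its gene column gives the 3′ gene. In windows that overlapped 1 minus-strand gene, 752 of 768 (97.9%) were listed as gene body. In those that overlapped 1 plus-strand gene, 14 of 750 (1.87%) were so listed, 364 were listed as promoter and 372 without a class. Where the name was found in the annotation, it was the overlapped gene in 640 of 659 windows of minus-strand genes and in 12 of 667 of plus-strand genes. For this reason genes were assigned here by coordinates. The ATM, MRE11 and LIG6 windows, for example, stand in the table under AT3G48195, LHCB3 and ASF1A.

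A listed window was found in 1452 of 27444 protein-coding genes (5.29%), with a higher level in S2γ30 in 833 (3.04%) and a lower one in 674 (2.46%). Genes with a window had a median length of 3502 bp, against 2078 bp in all protein-coding genes. In the shortest quintile of the genes 0.71% had a window, and in the longest quintile (3311 bp and over) 14.4%. Several windows were found in 112 genes, of which 104 had 2, 7 had 3 and 1 had 5. Their median length was 4726.5 bp. In 55 of these 112 genes (49.1%, 39.5 to 58.7%) some windows were higher and others lower in S2γ30, in 34 all were higher, and in 23 all were lower. With 2 windows it was 47 of 104 genes (45.2%, 35.4 to 55.3%) that had both directions. Neighbouring listed windows farther than 1 kb apart had the same direction in only 53% of cases. Mixed directions were thus common between neighbouring windows and not particular to these genes. The 8 genes with at least 3 windows had windows of both directions, 10 windows higher and 16 lower in S2γ30.

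XIF (AT2G31900), which encodes a class XI myosin, the motor of organelle transport along actin, had 5 windows along its 10100 bp. Counted from its start, the window at 1168 bp had 0.411 in S2γ30 and 0.844 in S1γ30, the one at 2368 bp 0.312 in S2γ30 and 0.547 in S1γ30. The window next to it, at 2568 bp, had 0.818 in S2γ30 and 0.438 in S1γ30. At 4968 bp the level was 0.449 in S2γ30 and 0.0975 in S1γ30, and at 9968 bp, in an untranslated region, 0.055 in S2γ30 and 0.825 in S1γ30. Adjoining windows of this gene thus moved in opposite directions.

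AGO4 (AT2G27040), the Argonaute of RNA-directed DNA methylation, had 3 windows. At 2290 bp from its start the level was 0 in S2γ30 and 0.374 in S1γ30, at 3490 bp 0.937 in S2γ30 and 0.555 in S1γ30, and at 4090 bp 0.676 in S2γ30 and 0.906 in S1γ30. VIP4 (AT5G61150), a subunit of the Paf1 complex that represses flowering, had 0.317 in S2γ30 and 0.0118 in S1γ30 at 1624 bp, 0.0506 in S2γ30 and 0.448 in S1γ30 at 2224 bp, and 0.157 in S2γ30 and 0.463 in S1γ30 at 3424 bp. NUA (AT1G79280), the nuclear pore anchor, had 0.299 in S2γ30 and 0.617 in S1γ30 at 1115 bp. Near its other end it had 0.474 in S2γ30 and 0.698 in S1γ30 at 10915 bp, and 0.399 in S2γ30 and 0.154 in S1γ30 at 11515 bp. In each of these genes 1 window went against the other 2, as it must where 3 windows have both directions.

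AT2G36720, annotated as an acyltransferase with a PHD-type zinc finger, had 0.651 in S2γ30 and 0.0875 in S1γ30 at 3254 bp, and 0 in S2γ30 and 0.504 in S1γ30 at 4454 bp. The last window, over the end of this gene had 0.0112 in S2γ30 and 0.413 in S1γ30. GLT1 (AT5G53460), the NADH-dependent glutamate synthase of nitrogen assimilation, had 0.587 in S2γ30 and 0.376 in S1γ30 at 4714 bp, 0.278 in S2γ30 and 0.512 in S1γ30 at 5114 bp, and 0.663 in S2γ30 and 0.333 in S1γ30 at 6314 bp. AT1G10320, a zinc finger protein, had adjoining windows at 1475 and 1675 bp with 0.898 and 0.668 in S2γ30, against 0.594 and 0.94 in S1γ30. Its window at 3275 bp had 0.428 in S2γ30 and 0.652 in S1γ30. The lipase gene AT1G05790 had 0.417 and 0.452 in S2γ30 at 1099 and 3099 bp, against 0.695 and 0.703 in S1γ30, and 0.912 in S2γ30 and 0.681 in S1γ30 at 4099 bp.

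**Figure D3:**
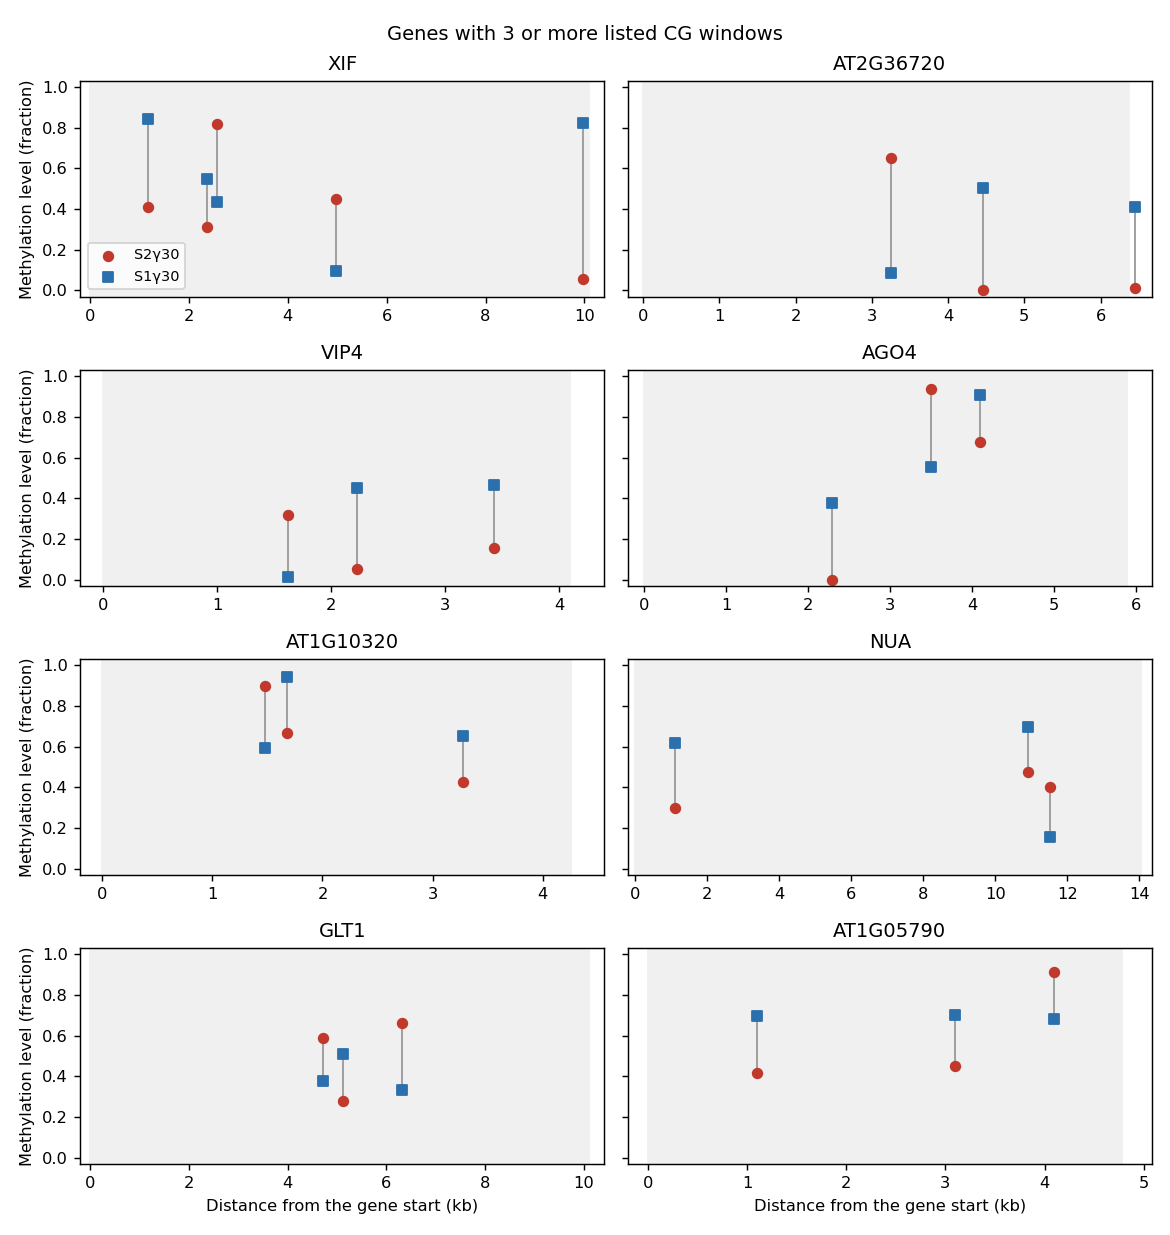
Methylation level (fraction) in S2γ30 (circles) and S1γ30 (squares) of each listed CG window against its distance from the gene start (kb) in the 8 genes with at least 3 windows, with the gene's length shaded. Each of the 8 genes has windows in which S2γ30 is above S1γ30 and windows in which it is below.

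Among the 104 genes with 2 windows, the 8 with the largest mean difference were named. REV1 (AT5G44750), a translesion DNA polymerase, had 0.938 in S2γ30 and 0.233 in S1γ30 at 1894 bp from its start, and 0.00877 in S2γ30 and 0.895 in S1γ30 at 5094 bp. HAC12 (AT1G16710), a histone acetyltransferase, had 0.396 in S2γ30 and 0.897 in S1γ30 at 3907 bp, and 0.907 in S2γ30 and 0.147 in S1γ30 at 5107 bp. GP ALPHA 1 (AT2G26300), the alpha subunit of the heterotrimeric G protein, had 0.287 in S2γ30 and 0.00276 in S1γ30 at 1105 bp, and 0.01 in S2γ30 and 0.869 in S1γ30 at 1905 bp. These genes had windows of both directions.

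AT2G47210 and MMT did so too. The other window of AT2G47210 had 0.749 in S2γ30 and 0.548 in S1γ30, and the other one of MMT 0.932 in S2γ30 and 0.519 in S1γ30. MLO8 (AT2G17480), of the MLO family of membrane proteins, was higher in S2γ30 in both windows, with 0.9 and 0.306 in S2γ30, against 0.00813 and 0.0174 in S1γ30. ESP (AT1G54040), the epithiospecifier protein that alters the products of glucosinolate breakdown, was higher in both as well, in adjoining intron windows inside the TE AT1TE66645. Its levels were 0.746 and 0.742 in S2γ30, against 0.168 and 0.0435 in S1γ30. AT1G50190, a C1 domain protein, was lower in both of its adjoining intron windows, with 0.0323 and 0.0299 in S2γ30, against 0.74 and 0.628 in S1γ30. In its second window 54.8% of the converted 75-base stretches are found once in the genome.

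Few listed windows had another one close by. The spacing of windows placed at random was not computed, so whether they lie closer or farther apart than that was not tested. The median distance between neighbouring listed windows was 37200 bp, and 80 of 1839 neighbours (4.35%) were within 1 kb. Of the 31 adjoining pairs, 22 (71%, 52 to 85.8%) had the same direction, and no run was longer than 2 windows. Among neighbours within 1 kb 42 of 80 (52.5%, 41 to 63.8%) had the same direction, and among those farther apart 932 of 1759 (53%, 50.6 to 55.3%). Besides the pairs near LCR12, in ESP and in AT1G50190, the largest same-direction pairs were on chromosomes 2 and 4. The pair at chr2:6179201-6179600, between AT2G14510 and AT2G14520, had 0.674 and 0.764 in S2γ30, against 0.0581 and 0.0117 in S1γ30. The pair at chr4:5124001-5124400, over the pseudogene AT4G08136, had 0.0261 and 0.0614 in S2γ30, against 0.783 and 0.807 in S1γ30.

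In TEs there were 183 windows (9.92%, 8.6 to 11.4%), over 223 TEs, since a window can overlap several. The overlap was taken from the table's own TE column, and the genome's share of windows in TEs was not computed, so 9.92% cannot be read as high or low. Of these, 22 also overlapped a protein-coding gene and 29 a pseudogene, and 137 of all windows (7.43%) were in neither a TE nor a protein-coding gene. The hypermethylated share was 60.1% (52.6 to 67.3%) in TEs, 61.3% (52.6 to 69.5%) in neither, and 55.1% (52.5 to 57.6%) in protein-coding genes without a TE. These intervals overlap. The median difference was 0.449 in TEs and 0.416 in neither, against 0.283 in genes. The classes had the same median of 3 CG sites but not the same make-up, since windows with 1 site, where differences are large, made up 24.6% of the TE windows (45) and 15.3% of those in neither (21), against 5.38% of those in genes (82). In a split by CG sites that was added after these values were seen, the medians with 2 or more sites were 0.407 in TEs and 0.384 in neither, against 0.278 in genes. With 3 sites they were 0.403 in TEs (33 windows) and 0.274 in neither (30 windows), against 0.275 in genes (438 windows), and with 1 site the order turned round, with 0.595 in TEs and 0.527 in neither, against 0.759 in genes. In TEs the hypermethylated windows had a median of 0.651 in S2γ30 and 0.0779 in S1γ30, and the hypomethylated ones 0.0676 in S2γ30 and 0.611 in S1γ30. In genes the same medians were 0.5 in S2γ30 and 0.131 in S1γ30, and 0.229 in S2γ30 and 0.562 in S1γ30. One group was under 0.1 in 55.2% (47.7 to 62.5%) of TE windows, 66.4% (57.9 to 74.3%) of windows in neither and 44.6% (42.1 to 47.2%) of genic windows. With 2 or more sites it was 46.4% (37.9 to 55.1%) in TEs and 62.1% (52.6 to 70.9%) in neither, against 42.2% (39.6 to 44.8%) in genes, so that the intervals of TEs and genes then overlapped.

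The largest gain in a TE had 0.869 in S2γ30 and 0.019 in S1γ30 (chr5:8530201-8530400, over AT5TE30860, AT5TE30865 and AT5TE30870, 515 bp before AT5G24830). The largest loss had 0 in S2γ30 and 0.79 in S1γ30 (chr4:5734001-5734200, AT4TE24045). Only 6 TEs had 2 windows, and none had more. Besides ESP's, AT5TE07635 was higher in both, with 0.718 and 0.59 in S2γ30, against 0.0455 and 0.0191 in S1γ30, and lies before AT5G06800. AT1TE74260 was higher in both, with 0.803 and 0.511 in S2γ30, against 0.0727 and 0.0146 in S1γ30. Its second window reaches into AT1G61105, of the TIR domain family of immune proteins. AT3TE62965 was higher in both, with 0.471 and 0.495 in S2γ30, against 0.0211 and 0.0145 in S1γ30.

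The other TEs with 2 windows had both directions. AT4TE08920 had 0.673 in S2γ30 and 0 in S1γ30 in the first window, and 0.022 in S2γ30 and 0.294 in S1γ30 in the next. AT3TE48455 had 0.0133 in S2γ30 and 0.331 in S1γ30 in the first, and 0.227 in S2γ30 and 0 in S1γ30 in the next. In 172 of the 183 TE windows (94%) and 1505 of the 1546 genic windows (97.3%), every converted 75-base stretch is found once in the genome.

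The 6 lists of genes that write, remove or use DNA methylation, repair DNA, repress flowering or remove reactive oxygen species held 113 genes, and 16 of them (14.2%) had a listed window. That is above the 5.29% of all protein-coding genes, but 86 of the 113 belonged to the longest quintile of genes, and there 14 of the 86 (16.3%) had a window, against 14.4% of all genes of that length. In that quintile the share of the lists was thus near the share of all genes. By direction, 10 genes had a window higher in S2γ30 and 10 a lower one.

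Of 13 writers and maintenance factors, VIM1 and VIM2 (15.4%) had a window, both lower in S2γ30. These are closely related cofactors of MET1. VIM1 (AT1G57820) had 0.0171 in S2γ30 and 0.271 in S1γ30 (chr1:21414001-21414200, intron and untranslated region), and VIM2 (AT1G66050) had 0 in S2γ30 and 0.384 in S1γ30 (chr1:24592401-24592600). In the VIM2 window 69% of the converted 75-base stretches are found once in the genome, against 100% in the VIM1 window. Of 9 demethylation genes, the glycosylase gene ROS1 (AT2G36490, DML1 in the annotation) had a window (11.1%). Its level was 0.0215 in S2γ30 and 0.272 in S1γ30 (chr2:15310601-15310800, coding exon and intron). Of 17 genes of RNA-directed DNA methylation, AGO4 (5.88%) was the one with windows, described above. These shares stand beside 5.29% of all protein-coding genes and 14.4% of those in the longest quintile, and each rests on at most 2 genes.

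Of 45 genes of DNA damage response and repair, 8 (17.8%) had 10 windows, against 5.29% of all protein-coding genes and 14.4% of those in the longest quintile. A window higher in S2γ30 was found in 6 of the 8 and a lower one in 3, against 833 and 674 of all 1452 genes with a window. MRE11 (AT5G54260), the nuclease of the double-strand break complex, had 0.588 in S2γ30 and 0.19 in S1γ30 in an intron (chr5:22035601-22035800). ATM (AT3G48190), the kinase that signals such breaks, had 0.463 in S2γ30 and 0.897 in S1γ30 at 9412 bp from its start, and 0.5 in S2γ30 and 0.259 in S1γ30 at 26212 bp. BRCA2B (AT5G01630), of homologous recombination, had 0.218 in S2γ30 and 0.008 in S1γ30 in a window where 78.6% of the converted stretches are found once. SMC6B (AT5G61460, MIM in the annotation), of the SMC5/6 complex, had 0.24 in S2γ30 and 0.00552 in S1γ30. RECQL4B (AT1G60930), a RecQ helicase, was lower, with 0.187 in S2γ30 and 0.435 in S1γ30.

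PARP1 (AT2G31320), a poly(ADP-ribose) polymerase that senses DNA breaks, was higher in both windows, with 0.402 and 0.903 in S2γ30, against 0.0169 and 0.703 in S1γ30. The first of these overlaps PARP1 only in an untranslated region at the gene's end, and its midpoint lies outside the gene. This window also overlaps a coding exon and an untranslated region of LBD14 (AT2G31310). The second lay in a coding exon of PARP1, with a difference of 0.201, near the threshold of 0.2. The largest difference of the list was in DNA ligase LIG6 (AT1G66730), with 0.0397 in S2γ30 and 0.897 in S1γ30, in a coding exon with the 1 CG site printed above. Of 18 flowering repressors, NUA, VIP4 and VIP5 (16.7%) had windows. VIP5 (AT1G61040), another Paf1 complex subunit, had 0.44 in S2γ30 and 0.0367 in S1γ30 in a coding exon. Of 11 antioxidant genes, the manganese superoxide dismutase MSD1 (AT3G10920) had a window (9.09%), with 0.683 in S2γ30 and 0.905 in S1γ30 (chr3:3419001-3419200). The shares of flowering repressors and antioxidant genes stand beside 5.29% of all protein-coding genes and 14.4% of those in the longest quintile. They rest on 3 genes and 1 gene.

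**Figure D4:**
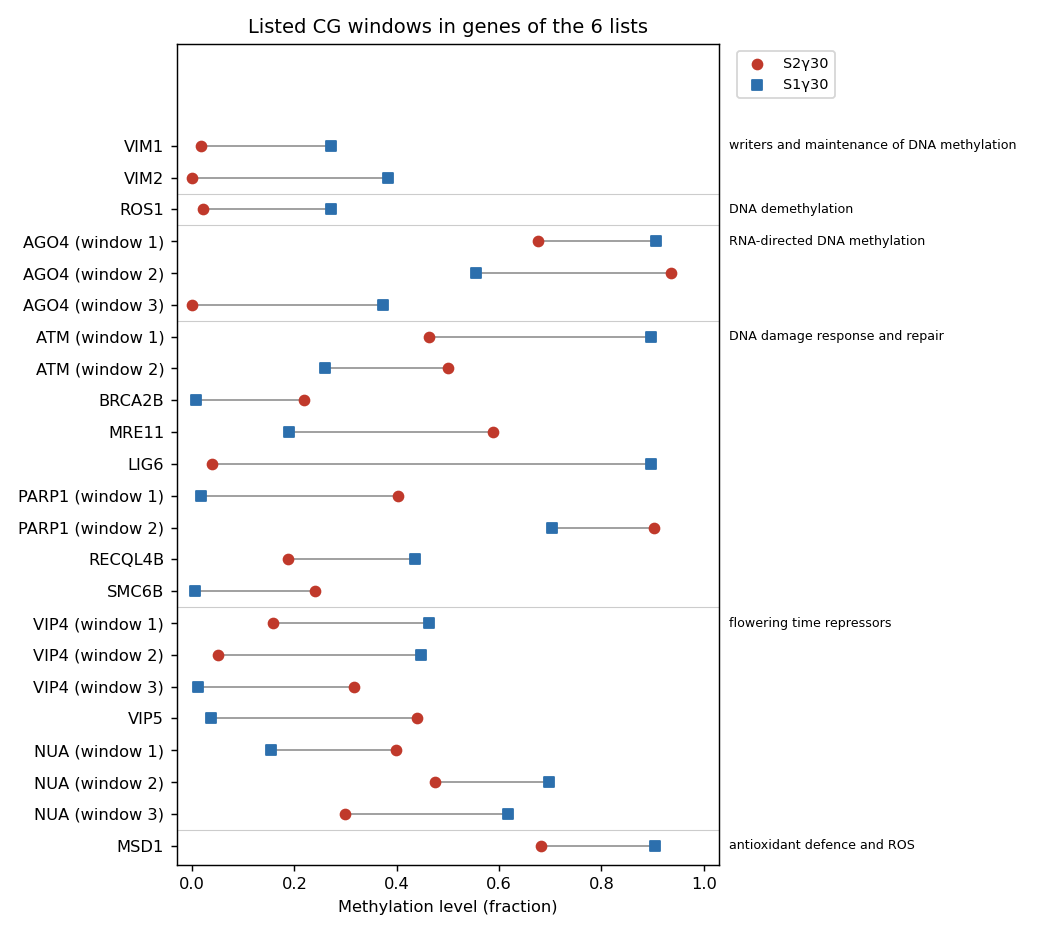
Methylation level (fraction) in S2γ30 (circles) and S1γ30 (squares) of the listed CG windows in genes of the 6 lists, without 1 gene that is only counted, with several windows of a gene numbered by coordinate. VIM1, VIM2 and ROS1 are lower in S2γ30, at 0.0171, 0 and 0.0215, and LIG6 has the longest line, between 0.0397 in S2γ30 and 0.897 in S1γ30.

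The genes that the study names for this comparison were chosen by it on these samples and are not independent evidence. Of 134 such names taken up, 112 were matched to a locus, and 69 of these (61.6%) were overlapped by a listed window. Among the names given for gene bodies it was 64 of 66, and among those given for promoters 5 of 46. By the study's definition, a gene body name has a window that overlaps the gene, and a promoter name has a window outside it. These counts, and the 61.6% over all matched names, thus largely follow from that definition. The matching was also incomplete. ESP and 4CLL6 got no locus, although listed windows overlap ESP and AT4G19010, the latter under the name 4CLL6. SYCO ARATH, which the study names too, was not taken up, although it held 2 listed windows.

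Some windows were listed in other comparisons too, which gives the level of further groups. These comparisons share S2γ30 or S1γ30 with the present one, and a window was listed in them only if it differed there, so the levels are set side by side. A group's level in a window was identical in every table. In AT5G15680, with 0.0168 in S2γ30 and 0.912 in S1γ30, the level was 0.914 in P0γ30, 0.919 in S2γ0 and 0.88 in S2γ110, so that S2γ30 stood apart. The same order was found in AT5G08630, a DDT domain protein, with 0.0256 in S2γ30 and 0.848 in S1γ30, beside 0.836 in P0γ30, 0.754 in S2γ0 and 0.775 in S2γ110. PDF1B (AT5G14660), a peptide deformylase, had 0.00402 in S2γ30 and 0.451 in S1γ30, beside 0.435 in P0γ30, 0.437 in S2γ0 and 0.47 in S2γ110. FYPP1 (AT1G50370), a protein phosphatase, had 0.0175 in S2γ30 and 0.462 in S1γ30, beside 0.455, 0.441 and 0.426 in those groups, and AT5G11500 had 0.494 in S2γ30 and 0.917 in S1γ30, beside 0.888, 0.863 and 0.933.

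A TE window on chromosome 3 (chr3:11097201-11097400, AT3TE46170), in which 60.3% of the converted stretches are found once, was higher in S2γ30, with 0.629, against 0.176 in S1γ30 and 0.0734 in P0γ30, 0.106 in S2γ0 and 0.0776 in S2γ110. In other windows S1γ30 was the group that the comparisons share. AT1G07040 had 0.828 in S2γ30 and 0.0413 in S1γ30, beside 0.842 in P0γ30, 0.906 in S1γ0 and 0.858 in S1γ110. SWI3C (AT1G21700), of the SWI/SNF chromatin remodelling complex, had 0.95 in S2γ30 and 0.468 in S1γ30, beside 0.947 in P0γ30, 0.922 in S1γ0 and 0.924 in S1γ110. The TE window at chr3:3750201-3750400 had 0.542 in S2γ30 and 0.00654 in S1γ30, beside 0.429 in P0γ30, 0.459 in S1γ0 and 0.449 in S1γ110. AT5G46420, a RimM family protein of ribosomal RNA processing, was listed in comparisons with either group. It had 0.678 in S2γ30 and 0.168 in S1γ30, beside 0.449 in P0γ30, 0.457 in S1γ0 and 0.413 in S2γ0. The latter levels lay between those of S2γ30 and S1γ30, but the window was not listed for S2γ30 against P0γ30.

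Among the genes of the lists, VIM1 had 0.00495 in P0γ30 and 0.00431 in S1γ0, so that S1γ30 was the group with methylation there. VIM2 had 0.408 in P0γ30, ROS1 0.285 and RECQL4B 0.414, beside which S2γ30 was low. LIG6 had 0.777 in S2γ0, and the AGO4 window at 0 in S2γ30 had 0.449 in S2γ0. BRCA2B had 0.00778 in P0γ30 and 0.00503 in S2γ0, and VIP5 0.0571 in P0γ30 and 0.0315 in S2γ0, beside which S2γ30 was high.

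Listed windows were spread over all chromosomes and were thinner around the centromeres, counted against all of the genome's windows with a CG. Chromosomes 1 to 5 held 486, 342, 273, 327 and 416 windows, that is 3.38, 3.66, 2.43, 3.69 and 3.23 per 1000 windows with a CG. Chromosome 3 had the fewest, with 14.8% of the listed windows and 19.8% of the genome's. The hypermethylated share was 53.3% (48.7 to 57.8%) on chromosome 1, 58.8% (53.4 to 64%) on chromosome 2, 61.9% (55.9 to 67.7%) on chromosome 3, 57.2% (51.6 to 62.6%) on chromosome 4 and 52.2% (47.2 to 57.1%) on chromosome 5. All 5 intervals overlap each other, which does not show that the shares are equal, and a difference between chromosomes was not tested. The pericentromeres, taken as the runs of 500 kb bins with little protein-coding sequence, held 127 windows (6.89%, 5.77 to 8.14%), against 16.9% of the genome's windows with a CG. By this definition they are poor in genes, in which most listed windows lay. How many of their windows could be mapped and tested is unknown, so whether this lowers their share was not tested. Of these 127, 68 (53.5%, 44.5 to 62.4%) were hypermethylated, against 56.2% (53.8 to 58.6%) of the 1717 on the arms, 57 (44.9%) lay in TEs, against 7.34% on the arms, and 36 in protein-coding genes.

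Within protein-coding genes the number per 1000 windows with a CG was 2.66 in the pericentromeres and 4.74 on the arms, and outside these genes 1.11 and 1.36. On chromosome 2 the pericentromere held 46 windows, or 2.16 per 1000, and on chromosome 5 it held 16, or 0.752 per 1000. The fullest 1 Mb was on chromosome 1 (chr1:2000001-3000000), with 39 windows, 23 higher and 16 lower in S2γ30, against a median of 15.5. One full 1 Mb stretch, chr5:12000001-13000000, had 0 windows.

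**Figure D5:**
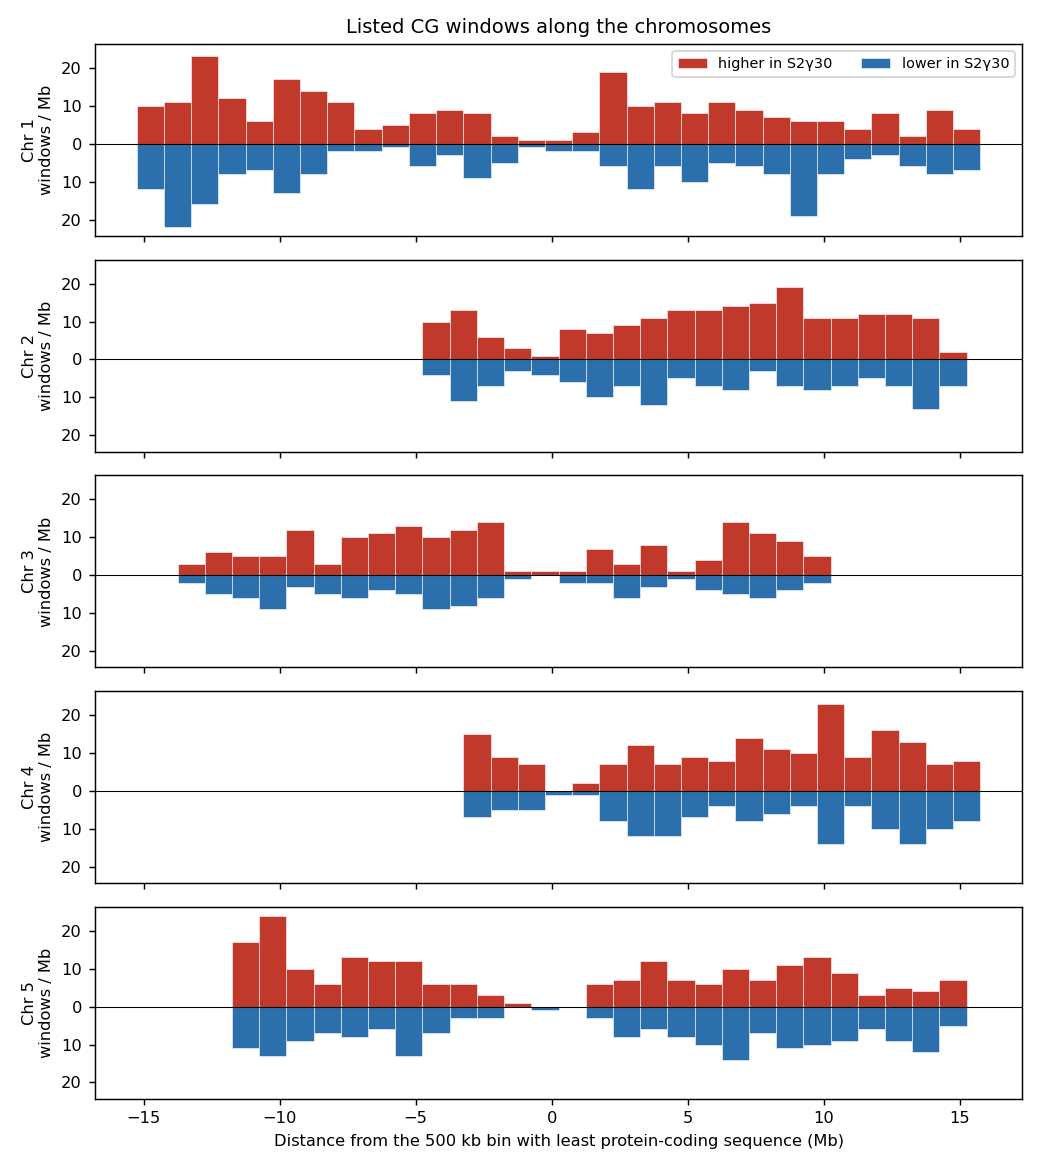
Number of listed CG windows per 1 Mb, higher in S2γ30 (upwards) and lower in S2γ30 (downwards), by distance (Mb) from the 500 kb bin with the least protein-coding sequence, for each chromosome. The bar nearest the zero point is short on every chromosome. On chromosomes 2 and 4 the bar on its other side reaches 14 and 12 windows, near the median of 15.5. The fullest 1 Mb, on chromosome 1, holds 39 windows.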

How the data were processed

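Rosette samples, 5 per condition, were analysed by the authors by whole genome bisulfite sequencing on 2 flow cells. The deposited values are methylation levels as a fraction per group and 200 bp window. Mapping by the authors was to TAIR10.31 in CLC Genomics Workbench 20.0 (minimum site coverage 5, minimum number of samples 3). Their p-values came from ANOVA and were adjusted in R 3.5.0 with the Benjamini-Hochberg method, and they assigned genes with CLC and TEs with bedtools. The deposited columns of p, adjusted p, difference and status hold the authors' comparison and were not used. The levels are pooled, so depth and spread are unknown, and a window covered in few samples cannot be told from one covered in all. Mapping can also place reads of repeated sequence wrongly, so the share of converted 75-base stretches found once was computed for each window.

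Differences were computed here as S2γ30 minus S1γ30, with Python 3.11.15. Genes, exons and CG sites came from the RefSeq annotation of TAIR10.1, in which all 1844 listed windows hold a CG. Shares have exact 95% intervals (SciPy 1.17.1). Counting steps were tested on simulated data. Alternatives were every entry counted, a difference of 0.3, adjoining windows joined, at least 2 CG sites, other thresholds for a low level, other assignments to genes and another pericentromere. Windows were named by rule: the largest changes per chromosome, in TEs, with 5 or more CG sites and at intermediate levels, genes with several windows, adjoining pairs (5), genes of the lists, windows in 4 tables (up to 10), windows nearest the threshold, and genes the study names, given as counts. The members and lists were chosen with earlier results of these data known. The 4 CHG windows of the comparison were left out. The values of 1 gene of the lists are not reported here, and it remains in the counts.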

Additional observations from a re-analysis of the deposited data

Results flagged for a closer look

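Beside the CG windows, the comparison lists 4 windows in the CHG context, which no result above uses, and 2 of them were methylated in S2γ30 with almost nothing in S1γ30. On chromosome 5 (chr5:1755001-1755200) the CHG level was 0.315 in S2γ30 and 0 in S1γ30, and the CG level of the same window was 0.741 in S2γ30 and 0.0094 in S1γ30. In the window near LCR12 (chr5:19830001-19830200) the CHG level was 0.487 in S2γ30 and 0.00696 in S1γ30, beside the CG level of 0.886 in S2γ30 and 0.0403 in S1γ30. The other 2 CHG windows were lower in S2γ30, with 0.0225 and 0.00754 in S2γ30, against 0.455 and 0.271 in S1γ30. No spread between samples is known for these values.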

How the results depend on the processing

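No paired analysis was possible because the tables hold 1 pooled level per group, and for the same reason no sample could be left out and no test refitted. With a difference of at least 0.3 instead of 0.2, 512 windows were hypermethylated and 389 hypomethylated in S2γ30, 280 were under 0.1 in S1γ30 only and 213 in S2γ30 only, 676 lay in protein-coding genes and 32 genes had several windows. By the class of the table, 807 windows were in a gene body, against 1546 by coordinates, and 52 named genes had several windows, against 112. A pericentromere of 5 Mb around the lowest bin held 185 windows, against 127. The other 35 values, that one included, were within 1.5 times of those reported, and the number with 1 CG site has no value when at least 2 are required. In each setting in which both were counted, hypermethylated windows outnumbered hypomethylated ones. The windows that did not pass the authors' thresholds are not analysed here, so no share above is a share of all windows tested, and pooled levels cannot show whether 1 sample or all 5 carry a difference.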
